A study of Mus musculus with 6 samples.

Results

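The genes described here are 10 antioxidant genes that the transcription factor NRF2 is known to induce, glutathione transferases left out: Gclc, Gclm, Slc7a11, Gsr, Gpx2, Txnrd1, Srxn1, Nqo1, Hmox1 and Osgin1. They were listed by name, with earlier results of these data known. Each matched exactly 1 of the 57180 rows of the gene table, and all 10 passed the filter on low counts that left 16989 genes for testing. Their levels were measured by sequencing of polyadenylated RNA from mouse lung in 6 libraries. 3 libraries came from FTO-overexpressing mice (labelled FTO_OE) and 3 from wild-type mice (labelled WT), and all animals had been exposed to cigarette smoke as a model of chronic obstructive pulmonary disease. FTO is an RNA demethylase that acts on N6-methyladenosine. Strain, age, length of exposure and the promoter or vector behind the overexpression are not given in the labels. Smoke-free lungs are not analysed here, so a response to smoke itself is not measured.

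NRF2, encoded by Nfe2l2, is bound by KEAP1 in resting cells and handed to a CUL3 ubiquitin ligase for destruction. Oxidants and electrophiles, which smoke carries in abundance, modify KEAP1, and NRF2 then accumulates, pairs with small MAF proteins and binds antioxidant response elements in its target genes. BACH1 competes for the same elements as a repressor, with Hmox1 as its best-known target. The induced genes supply cystine, build and recycle glutathione, keep thioredoxin and peroxiredoxins reduced, and clear quinones and heme. In the lung they are active in airway epithelium, alveolar cells and macrophages.

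The libraries held between 16731850 and 21444907 counts, and the 10 genes together took 0.0565% to 0.0735% of them. Levels are given as TMM-normalised CPM (counts scaled to library size), which correct for library size and composition but not for transcript length, so they are compared between libraries and not between genes. Fto itself stood at 666, 650.1 and 741 CPM in the FTO_OE libraries, against 66.2, 69.9 and 68.6 CPM in the WT libraries, so each library carried the Fto level its label called for. Lung identity was plain in all of them: the alveolar type 2 cell gene Sftpc, the club cell gene Scgb1a1 and the alveolar type 1 cell gene Ager averaged 13240, 24069 and 1318 CPM over the 6 libraries. Separate mice are not stated for the libraries in the labels, so the spread behind each p-value is that between samples and may be technical. Bulk RNA cannot tell fewer cells of a type from less RNA per cell.

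None of the 10 genes passed an edgeR adjusted p of 0.05, where p was adjusted over all 16989 genes. The background was 0.0942%, that is 16 genes of 16989. Adjusted p ran from 0.529 for Osgin1 to 0.991 for Slc7a11. Without adjustment 1 of the 10, Osgin1, had p under 0.05, against 9.44% of all genes. DESeq2 and limma-voom also called 0 of the 10. The fitted fold change of FTO_OE over WT was above 1 for 7 genes and below 1 for 3, where 51.5% of all genes were above 1. The median log2 fold change was 0.083 over the 10 genes and 0.0069 over all genes. Fold changes ran from 0.977 for Gclc to 1.33 for Gpx2. The 95% intervals ran from 0.601 at the lowest bound, for Slc7a11, to 1.92 at the highest, for Gpx2. A 2-fold difference in either direction therefore lay outside all 10 intervals, while smaller differences lay inside many of them.

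**Figure D1:**
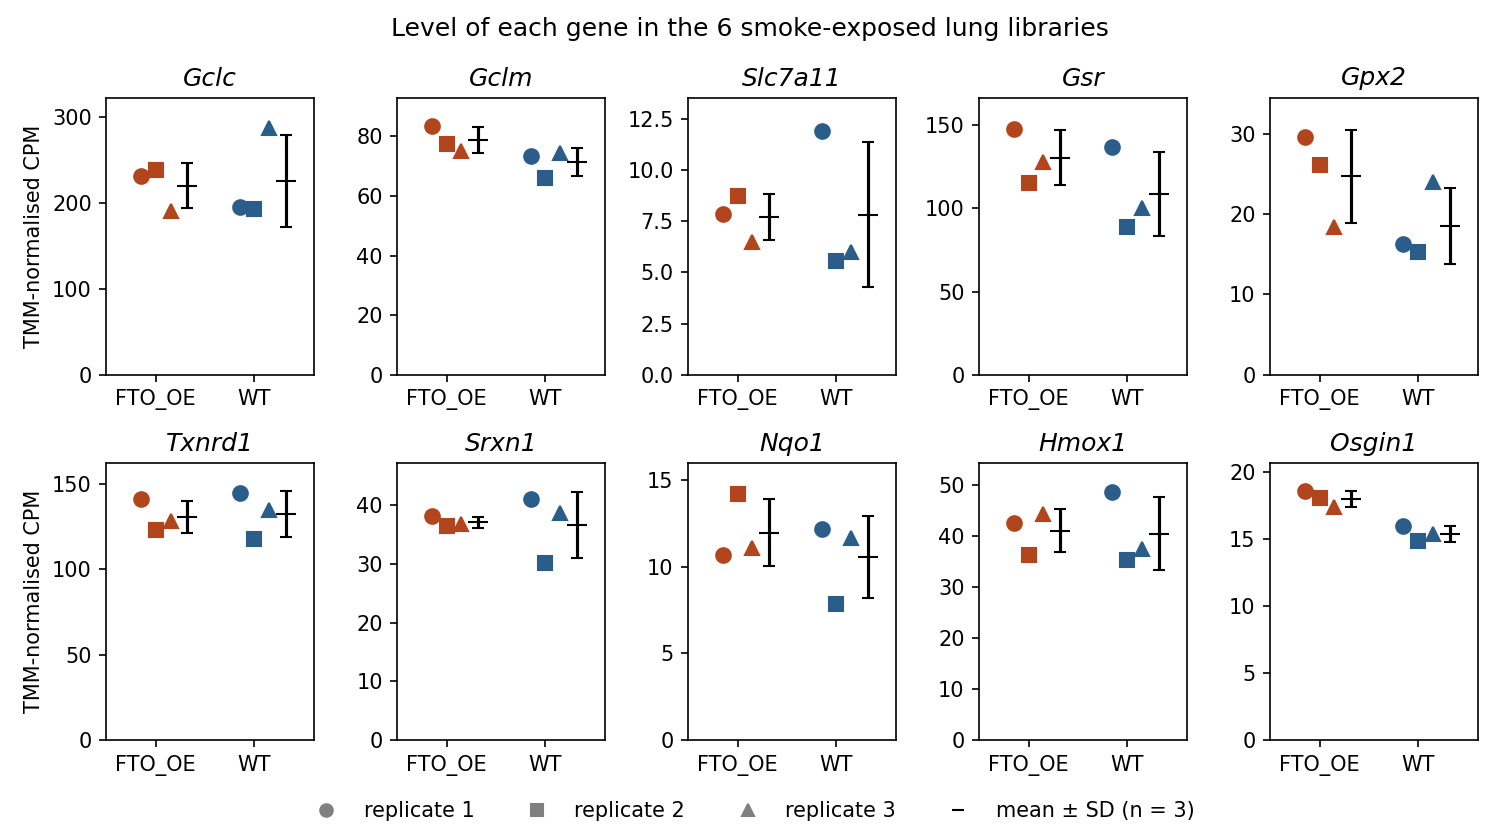
TMM-normalised CPM (vertical axes, from 0) of the 10 genes in 3 FTO_OE libraries (left, red) and 3 WT libraries (right, blue); the symbol shape gives the replicate number and black bars give the mean and SD of 3 libraries. Only Gclm and Osgin1 have all 3 FTO_OE libraries above all 3 WT libraries, and WT replicate 2 (square) is the lowest library in 9 of the 10 panels.

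The WT libraries did not form a tight reference for most of these genes. Osgin1, Gclm and Txnrd1 were exceptions, with coefficients of variation among WT libraries of 3.82%, 6.52% and 10.2%. WT replicate 2 was the lowest of the 6 libraries for 9 of the 10 genes, the exception being Gclc, where FTO_OE replicate 3 was lower at 190.3 CPM against 193.0 CPM. Over all genes tested, WT replicate 2 was lowest for 13.9%. On a log2 scale, with each gene centred on its mean over the 6 libraries, the 10 genes averaged 0.15, 0.089 and -0.033 in FTO_OE replicates 1, 2 and 3, against 0.097, -0.30 and -0.0027 in WT replicates 1, 2 and 3. FTO_OE replicate 1 and WT replicate 1 were each the highest library for 4 genes. The coefficient of variation was larger among WT than among FTO_OE libraries for all 10 genes, where the same held for 47.5% of all genes. The SD in CPM was larger among WT libraries for 9 of them, the exception being Gpx2. The median coefficient of variation of the 10 genes was 11.0% in FTO_OE and 20.1% in WT libraries, and over all genes it was 11.3% and 11.05% for the same groups. Without WT replicate 2 the number of the 10 genes with a fold change above 1 was 5, and without WT replicate 1 it was 9.

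**Figure D2:**
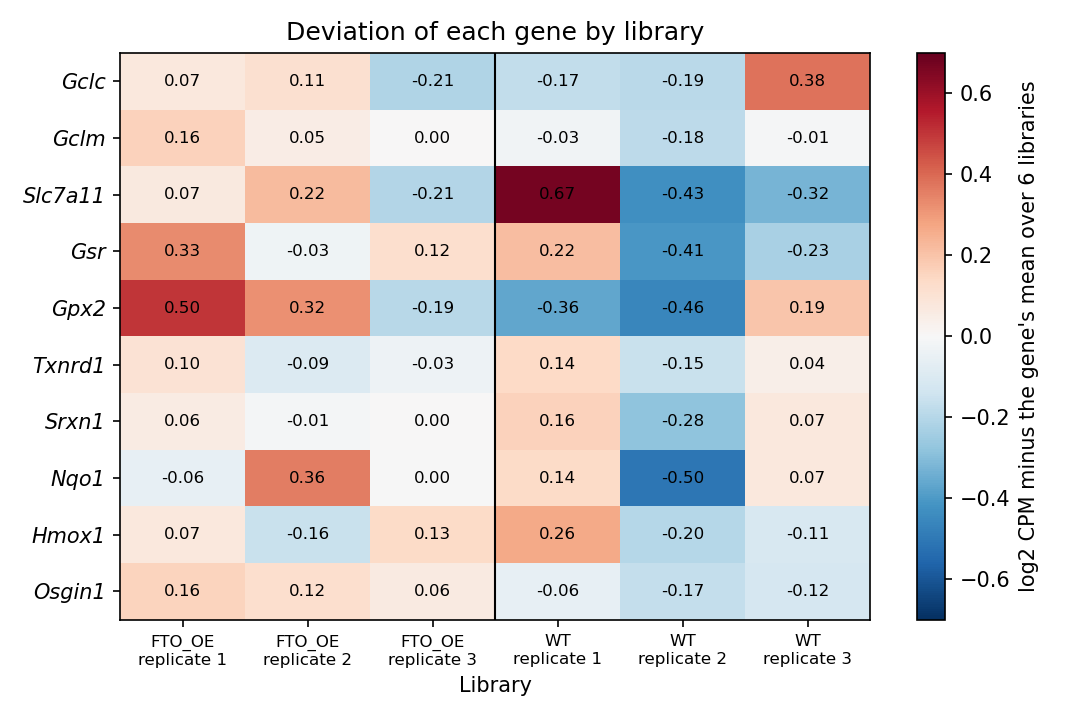
Log2 CPM of each gene (rows) minus its mean over the 6 libraries, for FTO_OE (3 columns left of the line) and WT libraries (3 columns right of it); red is above and blue below the mean. The column of WT replicate 2 is negative for all 10 genes, from -0.15 for Txnrd1 to -0.50 for Nqo1, whereas WT replicate 1 holds the largest positive value, 0.67 for Slc7a11.

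NRF2 acts on these genes through DNA, so the promoters were read for the core of the antioxidant response element. RefSeq promoter windows (GRCm38.p6, 250 bases before to 50 after a gene's start) were found for 7 of the 10 genes, in 9 windows. The core was searched as TGACNNNGC, N being any base, on both strands; where the N positions read TCA it would also spell an AP-1 site. It was found for 3 of the 7 genes, against 14.0% of all genes with a window. These are shown because they carry the match in capitals. The Gclm window (chr3:122245307-122245606, plus strand) holds TGACGGTGC on the opposite strand, beginning 134 bases before the start. The second of 3 Txnrd1 windows (chr10:82858956-82859255, plus strand) holds TGACAAAGC on the opposite strand, 92 bases before the start, and the Srxn1 window (chr2:152105274-152105573, plus strand) holds TGACCTAGC on the opposite strand, 28 bases after it.
Gclm: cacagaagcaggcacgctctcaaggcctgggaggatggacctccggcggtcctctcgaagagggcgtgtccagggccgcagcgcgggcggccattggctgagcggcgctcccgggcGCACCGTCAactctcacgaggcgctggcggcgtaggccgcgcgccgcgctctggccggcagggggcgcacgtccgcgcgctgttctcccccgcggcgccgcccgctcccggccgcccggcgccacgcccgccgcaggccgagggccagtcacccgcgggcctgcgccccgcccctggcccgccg
Txnrd1: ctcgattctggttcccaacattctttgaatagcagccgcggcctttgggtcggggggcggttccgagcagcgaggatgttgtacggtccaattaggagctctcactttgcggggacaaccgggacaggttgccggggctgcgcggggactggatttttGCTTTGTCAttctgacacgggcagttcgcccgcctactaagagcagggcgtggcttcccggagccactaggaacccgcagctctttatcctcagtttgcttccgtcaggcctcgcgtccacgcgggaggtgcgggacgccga
Srxn1: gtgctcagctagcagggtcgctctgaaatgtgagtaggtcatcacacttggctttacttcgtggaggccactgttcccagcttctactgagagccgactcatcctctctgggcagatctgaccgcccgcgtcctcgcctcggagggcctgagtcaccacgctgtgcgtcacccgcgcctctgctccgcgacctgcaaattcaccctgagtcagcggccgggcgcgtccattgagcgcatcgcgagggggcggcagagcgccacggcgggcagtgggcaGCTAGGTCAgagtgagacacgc
No match stood in the windows of Osgin1, Nqo1, Slc7a11 and Gpx2, which says only that these letters are not in these 300 bases. A match is a description of the letters and not a measured binding site. Of the 3 genes with a match, Gclm was separated between the groups and Txnrd1 and Srxn1 were not, as given below. Among the genes whose windows held no match, Osgin1 was separated and Nqo1, Slc7a11 and Gpx2 were not.

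Glutathione synthesis begins with glutamate-cysteine ligase, whose catalytic subunit is encoded by Gclc and whose modifier subunit by Gclm. Gclm (ENSMUSG00000028124) had 83.6, 77.6 and 75.0 CPM in FTO_OE lungs, against 73.5, 66.0 and 74.5 CPM in WT lungs. All 3 FTO_OE libraries lay above all 3 WT libraries, though FTO_OE replicate 3 was only just above WT replicate 3; this order was seen for 7.96% of all genes. The fold change was 1.10 (95% interval 0.966 to 1.26; edgeR adjusted p = 0.678), from means of 78.7 ± 4.39 CPM in FTO_OE and 71.4 ± 4.65 CPM in WT lungs (SD, n = 3 each). Gclc (ENSMUSG00000032350) had 231, 238 and 190.3 CPM in FTO_OE lungs, against 195, 193.0 and 287 CPM in WT lungs. The groups overlapped fully, with WT replicate 3 the highest of all and the other WT libraries near the bottom. Its fold change was 0.977 (95% interval 0.743 to 1.29; edgeR adjusted p = 0.977), and it was 1.13 without WT replicate 3. The ratio of Gclc to Gclm CPM, which carries a constant for transcript length, was 2.77, 3.07 and 2.54 in FTO_OE lungs and 2.66, 2.92 and 3.85 in WT lungs. The 2 subunit genes thus kept a similar proportion in 5 libraries and a higher one in WT replicate 3.

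Slc7a11 encodes xCT, the transporter that brings in cystine for glutathione synthesis. Slc7a11 (ENSMUSG00000027737) had 7.88, 8.76 and 6.50 CPM in FTO_OE lungs, against 11.9, 5.57 and 6.00 CPM in WT lungs. WT replicate 1 was the highest library and the other 2 WT libraries were the lowest, so the coefficient of variation was 14.7% in FTO_OE and 45.4% in WT, which was the largest of the 10 genes. The fold change was 0.984 (95% interval 0.601 to 1.61; edgeR adjusted p = 0.991). It was 1.06 without FTO_OE replicate 3, 1.34 without WT replicate 1 and 0.859 without WT replicate 2. It also came out above 1 with library-total scaling, limma-voom and a replicate block, so its direction was not stable. The 12 alveolar macrophage markers summed to 2528, 1640 and 1745 CPM in FTO_OE lungs, against 3166, 2294 and 2271 CPM in WT lungs. This sum, mostly Chil3, was also highest in WT replicate 1, which was the highest library for 6 of the 12 markers. In FTO_OE replicate 2, by contrast, the sum was lowest at 1640 CPM, while Slc7a11 was highest among FTO_OE libraries at 8.76 CPM. Among the 12 markers 0 were at 0 in every library, and their part in the Slc7a11 level was not tested. Slc3a2, the heavy chain that carries xCT to the membrane, had 204, 154 and 201 CPM in FTO_OE lungs, against 206, 243 and 217 CPM in WT lungs. Its 3 FTO_OE libraries were below all WT libraries, with a fold change of 0.840 and an edgeR adjusted p of 0.615.

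Recycling and use of glutathione gave the 2 largest fold changes of the set, in Gpx2 and Gsr. Gpx2 (ENSMUSG00000042808), a selenium-dependent glutathione peroxidase of epithelial cells, had 29.7, 26.2 and 18.4 CPM in FTO_OE lungs, against 16.3, 15.3 and 24.0 CPM in WT lungs. FTO_OE replicates 1 and 2 were above every WT library, while FTO_OE replicate 3 was below WT replicate 3, so the groups overlapped. The fold change was 1.33 (95% interval 0.927 to 1.92; edgeR adjusted p = 0.650), from means of 24.7 ± 5.79 CPM in FTO_OE and 18.5 ± 4.75 CPM in WT lungs (SD, n = 3 each). It lay between 1.20 and 1.56 when any 1 library was left out. Gsr (ENSMUSG00000031584), glutathione reductase, which returns oxidised glutathione to its reduced form with NADPH, had 148, 115 and 128 CPM in FTO_OE lungs, against 137, 88.9 and 100.5 CPM in WT lungs. WT replicate 1 was higher than 2 of the FTO_OE libraries, so these groups overlapped too. The Gsr fold change was 1.20 (95% interval 0.913 to 1.57; edgeR adjusted p = 0.718). It was 1.38 without WT replicate 1 and 1.10 without WT replicate 2.

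The thioredoxin arm did not separate the groups. Txnrd1 (ENSMUSG00000020250), cytosolic thioredoxin reductase, had 141, 123 and 128 CPM in FTO_OE lungs, against 145, 118 and 135 CPM in WT lungs. The FTO_OE libraries lay entirely within the WT range. Its fold change of 0.986 had the interval 0.840 to 1.16 (edgeR adjusted p = 0.977). Srxn1 (ENSMUSG00000032802), sulfiredoxin, which repairs over-oxidised peroxiredoxins, had 38.2, 36.4 and 36.7 CPM in FTO_OE lungs, against 41.0, 30.2 and 38.6 CPM in WT lungs. Here the FTO_OE values were nearly alike, with a coefficient of variation of 2.54% in FTO_OE against 15.5% in WT, and again lay inside the WT range. The fold change of Srxn1 was 1.01 (95% interval 0.838 to 1.23; edgeR adjusted p = 0.981).

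Nqo1, Hmox1 and Osgin1 act outside glutathione and thioredoxin. Osgin1 (ENSMUSG00000074063), an oxidative stress-induced growth inhibitor gene, had 18.5, 18.0 and 17.4 CPM in FTO_OE lungs, against 16.0, 14.8 and 15.3 CPM in WT lungs. The groups did not overlap and both were tight, with coefficients of variation of 3.24% in FTO_OE and 3.82% in WT. The fold change was 1.17 (95% interval 1.00 to 1.36), with an unadjusted edgeR p of 0.0483 and an adjusted p of 0.529, so it did not pass. Leaving out any 1 library gave fold changes of 1.15 to 1.20 and adjusted p of 0.404 to 0.930.

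Nqo1 (ENSMUSG00000003849), the quinone reductase that is the classic NRF2 reporter gene, had 10.7, 14.2 and 11.1 CPM in FTO_OE lungs, against 12.2, 7.83 and 11.7 CPM in WT lungs. The highest value came from FTO_OE replicate 2 and the lowest from WT replicate 2, with the other 4 libraries close together. Its fold change was 1.13 (95% interval 0.816 to 1.58; edgeR adjusted p = 0.861) and 1.00 without WT replicate 2. Hmox1 (ENSMUSG00000005413), heme oxygenase-1, which breaks down heme, had 42.5, 36.3 and 44.4 CPM in FTO_OE lungs, against 48.6, 35.2 and 37.4 CPM in WT lungs. These FTO_OE values lay within the WT range, and the fold change was 1.02 (95% interval 0.813 to 1.27; edgeR adjusted p = 0.981). The share of counts from haemoglobin genes, a measure of blood in the tissue, was 3.27%, 1.82% and 0.368% in FTO_OE libraries and 2.26%, 1.54% and 0.856% in WT libraries. Hmox1 was highest among FTO_OE libraries in replicate 3, where that share was lowest, and highest among WT libraries in replicate 1, where it was highest; the part of blood in its level was not tested.

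**Figure D3:**
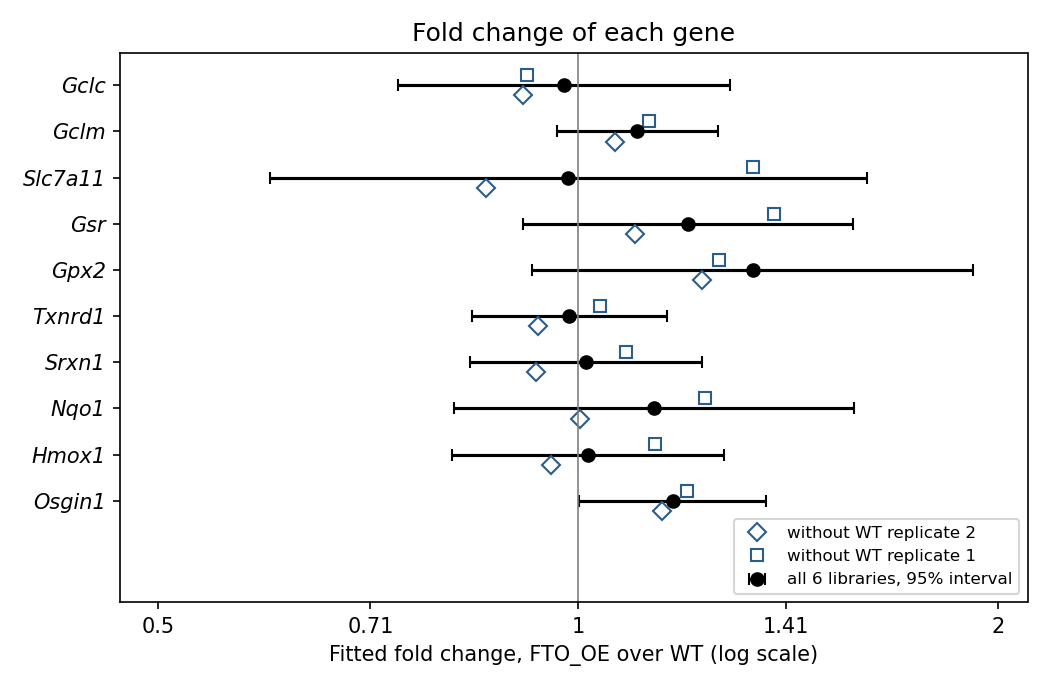
Fitted fold change of FTO_OE over WT (horizontal axis, log scale) for each gene with its 95% interval from 6 libraries (black), and the fold change without WT replicate 1 (open squares) or WT replicate 2 (open diamonds). The Osgin1 interval begins at 1.00, the other 9 intervals span 1, and the squares lie to the right of the diamonds for all 10 genes.

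The regulators of NRF2 were measured alongside. The list of 12 genes covered NRF2, its KEAP1-dependent and other degradation machinery, small MAF partners and BACH1, and also held Nfe2l1 and Sqstm1. Of these 12 genes 0 passed the threshold, 4 had fold changes above 1, and the median log2 fold change was -0.061. Nfe2l2 had 201, 176 and 182 CPM in FTO_OE lungs, against 202, 208 and 203 CPM in WT lungs, so all 3 FTO_OE libraries were below all WT libraries, FTO_OE replicate 1 only just. Its fold change was 0.913 (edgeR adjusted p = 0.692). Keap1, the inhibitor, had 59.3, 55.8 and 60.4 CPM in FTO_OE lungs, against 54.4, 52.1 and 54.7 CPM in WT lungs, all FTO_OE libraries being above, with a fold change of 1.09 (edgeR adjusted p = 0.668). The small MAF gene Mafk was lower in all FTO_OE libraries, at 62.5 to 70.2 CPM against 72.6 to 77.2 CPM in WT, a fold change of 0.881 (edgeR adjusted p = 0.507). These 3 genes, which had the smallest p of the 12, separated the groups and none passed adjustment. The other 9 overlapped between the groups. Over all genes, 7.96% had all FTO_OE libraries above all WT libraries and 6.90% had them below. NRF2 is regulated mainly as a protein, which RNA levels do not measure.

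Of 24 other NRF2 targets, among them NADPH-producing enzymes, thioredoxin, peroxiredoxins, ferritin and carbonyl reductases, 0 passed the threshold, and 15 had fold changes above 1, with a median log2 fold change of 0.061. The 3 with the smallest p lay on both sides of 1. Prdx6, a peroxiredoxin abundant in lung, had a fold change of 0.827, the heme transporter gene Slc48a1 one of 0.891 and the carbonyl reductase gene Cbr3 one of 1.20, with edgeR adjusted p of 0.535, 0.552 and 0.621. FTO_OE replicate 2 was the lowest library for 9 of the 24 and WT replicate 2 for 8 of them.

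Among 22 other genes of glutathione metabolism 0 passed the threshold, 6 had fold changes above 1, and the median log2 fold change was -0.081. 7 of the 22 had all FTO_OE libraries below all WT libraries, an order seen for 6.90% of all genes. Without adjustment 2 of the 22 had p under 0.05, both lower, against 9.44% of all genes. The 10 alveolar type 2 cell markers were placed in the same way: 10 of 10 had fold changes below 1, 7 had all FTO_OE libraries below all WT libraries and 5 had an unadjusted p under 0.05, with 0 passing adjustment. They summed to 21228, 19709 and 23788 CPM in FTO_OE lungs, against 26399, 25129 and 22975 CPM in WT lungs, and their part in the levels of the glutathione genes was not tested. Gpx3, the secreted glutathione peroxidase, had 530.3, 467 and 474 CPM in FTO_OE lungs, against 616, 709.8 and 726 CPM in WT lungs. The groups did not overlap, and the fold change was 0.717 (edgeR unadjusted p = 0.00182, adjusted p = 0.155). Gss, glutathione synthetase, which completes the tripeptide, had 30.0, 30.4 and 30.7 CPM in FTO_OE lungs, against 35.7, 32.6 and 34.6 CPM in WT lungs, a fold change of 0.886 (edgeR adjusted p = 0.535). Dpep1, a dipeptidase that degrades a glutathione breakdown product, had a fold change of 0.791 (edgeR adjusted p = 0.529). Gpx2 and Gpx3, both glutathione peroxidase genes, thus had fold changes on opposite sides of 1, and neither passed.

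The thioredoxin, superoxide and selenoprotein lists also held no gene past the threshold. Among 18 other thioredoxin, peroxiredoxin and methionine sulfoxide reductase genes the median log2 fold change was 0.020, and Txnrd2, the mitochondrial thioredoxin reductase, had 9.35, 10.3 and 10.7 CPM in FTO_OE lungs, all above WT, against 8.83, 8.04 and 8.09 CPM in WT lungs (fold change 1.22, edgeR adjusted p = 0.578). The fold changes of the stress gene Sesn2 and of Prdx5 were 0.892 and 1.09. Of 10 superoxide dismutase and NADPH oxidase genes tested, with a median of 0.027, Nox4, an oxidase that makes hydrogen peroxide, had 66.1, 70.8 and 73.7 CPM in FTO_OE lungs, against 86.6, 85.5 and 96.4 CPM in WT lungs (fold change 0.784, edgeR adjusted p = 0.201). Ncf4, a subunit of the phagocyte oxidase, and Sod3, the extracellular dismutase, had fold changes of 1.28 and 0.878. Among 11 selenoprotein genes and factors that make selenoproteins, which bear on Gpx2 and Txnrd1, the median was 0.048, and the fold changes of Pstk, Sephs2 and Selenop were 1.20, 1.16 and 0.858.

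Slc7a11 is also a target of the amino acid stress factor ATF4, and smoke acts through the aryl hydrocarbon receptor, so both programmes were read. Of 12 ATF4 genes 0 passed, with a median log2 fold change of -0.027 and 5 above 0. Within that list Atf5, a related transcription factor gene, had a fold change of 0.758, the serine synthesis gene Psat1 one of 1.42 and the mitochondrial folate enzyme gene Mthfd2 one of 1.69, with edgeR adjusted p of 0.239, 0.251 and 0.315. Of 8 aryl hydrocarbon receptor genes tested, which include Nfe2l2, 0 passed and 6 were above 0, with a median of 0.092. The repressor gene Tiparp had 47.7, 49.0 and 49.2 CPM in FTO_OE lungs, against 63.6, 59.9 and 57.2 CPM in WT lungs, a fold change of 0.807 (edgeR adjusted p = 0.195). The receptor gene Ahr itself had 128, 124 and 141 CPM in FTO_OE lungs, against 105.5, 107 and 115 CPM in WT lungs, a fold change of 1.20 (edgeR adjusted p = 0.339). Both genes separated the groups without passing adjustment, as did Nfe2l2, already described among the NRF2 regulators, while 5 of the 8 genes overlapped. Such orders were seen for 7.96% (all FTO_OE above) and 6.90% (all FTO_OE below) of all genes.

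**Figure D4:**
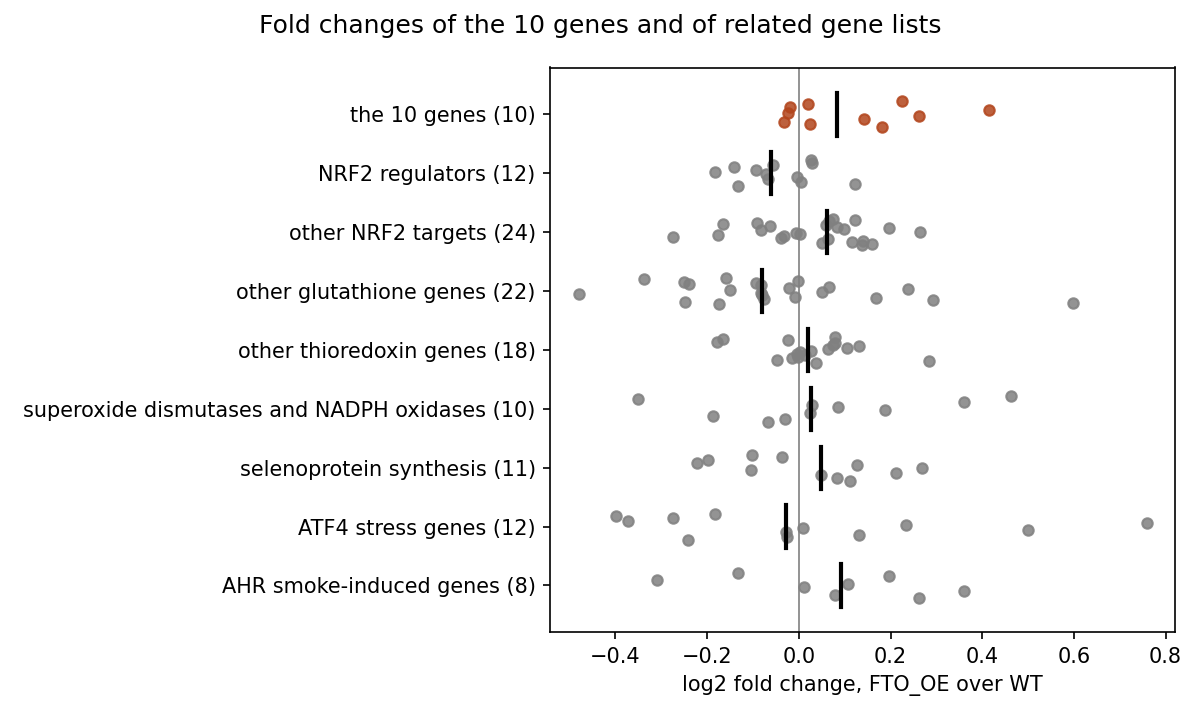
Log2 fold change of FTO_OE over WT (horizontal axis) for the 10 genes (red, top row) and for 8 related lists (grey), 1 point per gene tested, with the number of genes in brackets and a black bar at each list's median. Medians lie between -0.081 for other glutathione genes and 0.092 for aryl hydrocarbon receptor genes, and that of the 10 genes is 0.083.

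Cell type markers also differed between the libraries. For comparison, all FTO_OE libraries lay above all WT libraries for 7.96% of all genes and below for 6.90%. The threshold was passed by 0.0942% of all genes. The 8 T cell markers summed to 246, 334 and 509 CPM in FTO_OE lungs, against 106, 93.1 and 80.7 CPM in WT lungs, all 8 separated the groups and 3 of 8 passed the threshold. None of the markers tested in the other 14 cell type lists passed. Fold changes were below 1 for all 10 alveolar type 2, all 6 alveolar type 1 and all 6 endothelial markers, with medians on the log2 scale of -0.26, -0.17 and -0.21, and 7, 3 and 2 of them had all FTO_OE libraries below all WT libraries. Of 10 monocyte and interstitial macrophage markers, 8 had fold changes above 1 and 3 had all FTO_OE libraries above, with a median of 0.17. All 10 neutrophil markers had fold changes above 1, with a median of 0.33 and every one overlapping between the groups. The 6 fibroblast markers summed to 1644, 1882 and 1901 CPM in FTO_OE lungs, against 1705, 2525 and 2295 CPM in WT lungs. Their sum was highest in WT replicate 2, the library that was lowest for 9 of the 10 antioxidant genes. It was next highest, at 2295 CPM, in WT replicate 3, which was lowest for 0 of the 10. WT replicate 2 was the highest library for 4 of the 6 fibroblast markers. The sum of the 6 endothelial markers was also highest there, at 3403 CPM.

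Part of the airway epithelial markers followed the libraries in which Gpx2 and Gclc were high, a pattern chosen after its values were seen. FTO_OE replicates 1 and 2 and WT replicate 3 were the 3 highest libraries for Gpx2 and for Gclc, and for 4.47% of all genes tested. They were also the 3 highest for 6 of 8 ciliated cell markers, among them Foxj1, the master regulator of motile cilia, and for 6 of 10 club and secretory cell markers, among them Scgb3a1, Bpifa1, Bpifb1 and Agr2. Bpifb1, a secreted airway defence protein gene, had 79.4, 184 and 17.7 CPM in FTO_OE lungs, against 0.379, 2.05 and 41.3 CPM in WT lungs. The ciliated markers summed to 306, 305.4 and 225 CPM in FTO_OE lungs, against 238, 248 and 309.95 CPM in WT lungs. All 10 secretory markers summed to 27821, 21912 and 24106 CPM in FTO_OE lungs, against 28545, 26230 and 33657 CPM in WT lungs. This sum, mostly Scgb1a1, did not follow the pattern and was lowest in FTO_OE replicate 2. Without Scgb1a1 it was 3437, 3568 and 2494 CPM in FTO_OE lungs, against 2630.2, 2412 and 3314 CPM in WT lungs. Of the 10 secretory markers 4 had an unadjusted edgeR p under 0.05, against 9.44% of all genes, and 0 passed adjustment. Fold changes were above 1 for 8 of the 10, against 51.5% of all genes, with a median log2 fold change of 1.77. The 2 most abundant, Scgb1a1 and Cyp2f2, went the other way, with fold changes of 0.80 and 0.89. Muc5b, an airway mucin gene, was the one with the smallest p, at a fold change of 5.25 (edgeR adjusted p = 0.217). None of the ciliated or secretory markers was at 0 in every library. The part of airway content in the levels of Gpx2 and Gclc, and of cell composition in those of the other 8 genes, was not tested.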

How the data were processed

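Polyadenylated RNA of 6 lung samples was measured, per the labels' protocols with TRIzol extraction and a stranded Illumina kit. The authors deposited expected counts (estimated counts per gene, unscaled), made with fastp, HISAT2 and StringTie per the submitters' processing notes, without versions; genome build, annotation and counting strand: not given in the sources used here. Values were rounded, since 9.66% to 10.3% of rows were not whole. In R 4.3.3, edgeR 4.0.16 (default filter, TMM, quasi-likelihood F-test, group as the only term) was fitted to all genes, including 525 rows with an identifier but no symbol (0.119% to 0.143% of counts), with Benjamini-Hochberg adjustment. Intervals (95%) come from the fold change and its F statistic. No library duplicated another (chi-square over degrees of freedom of 20.9 or more).

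The 10 genes and 23 other lists were chosen with earlier results of these data known; all 248 entries matched. Named genes were the 10, Fto, the up to 3 with the smallest p in each pathway list where none passed, and abundant cell type markers. Slc3a2 and the less abundant airway markers Scgb3a1, Bpifa1, Bpifb1, Agr2 and Muc5b were named after their values were seen. Alternatives were other scalings and filters, limma 3.58.1 (voom), DESeq2 1.42.0, a replicate block and leaving out each library. The procedure was tested on simulated counts.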

Additional observations from a re-analysis of the deposited data

How the results depend on the processing

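None of the 10 genes passed the threshold under any of 15 alternatives (lowest adjusted p 0.220, for Gsr without WT replicate 1), and 134 of 150 fold changes of single genes kept their direction. The 16 that turned were of genes with fold changes near 1. Scaling by library totals only gave log2 fold changes of 0.016 for Slc7a11 and 0.010 for Txnrd1 and moved the median of all genes to 0.040, so that 9 of the 10 were above 0. Slc7a11 was at 0.046 with limma-voom and at 0.051 with a replicate block. With 1 library left out the log2 fold change ran from -0.22 to 0.42 for Slc7a11, from -0.13 to 0.18 for Gclc, from -0.065 to 0.18 for Hmox1, from -0.10 to 0.11 for Srxn1 and from -0.096 to 0.054 for Txnrd1. The median of the 10 genes ran from -0.030 (without WT replicate 2) to 0.22 (without WT replicate 1), and was 0.077 to 0.11 under the other settings with 6 libraries.

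Over all genes, 16 calls became 287 with no filter, 31 without haemoglobin, immunoglobulin and mitochondrial genes, 2 with the replicate block, 5 with limma-voom, 421 with DESeq2, and 1 to 49 with 1 library left out; the cause was not tested. Correlations of deviations between same-numbered libraries were 0.14, -0.34 and -0.38 for replicates 1, 2 and 3. They were higher for FTO_OE replicate 2 with WT replicate 3, at 0.49, and for FTO_OE replicate 3 with WT replicate 2, at 0.32. With 3 libraries per group these values cannot settle whether the numbers pair the samples. The intervals still hold differences smaller than 2-fold for each of the 10 genes.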
